A study of Mus musculus with 10 samples.

Results

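Complement components and regulators were followed in OP9 stromal cells through 9 genes chosen by name: *C1ra*, *C1s*, *C3*, *C4b*, *Cfb*, *Serping1*, *Cd55*, *Cd59a* and *Clu*. By name, 7 of these were found among the 26888 genes measured. *Cfb* was not analysed here, and *C1ra* was not analysed under this name, although a gene listed as *C1rb*, described below and not counted as a member, carries an identifier that a later annotation names *C1ra*. OP9 is a stromal line from the calvaria, labelled as foetal, of op/op mice, labelled (C57BL/6xC3H)F2-op/op, which lack functional macrophage colony-stimulating factor. Transcriptomes had been measured by RNA-seq in 6 reaggregates and 4 flat cultures, to compare a culture form used to support blood stem cell maturation with ordinary culture. For reaggregates, cells had been dispersed with trypsin, pelleted and kept for 48 h on nitrocellulose filters at the liquid-gas interface, 3 of them (reaggregates 2, 4 and 6) with IL-3, labelled at 200 μg/μl, and 3 without. Flat cultures had been grown submersed in medium. Flat cultures 2 and 4 carried a label of the de Bruijn laboratory, whereas flat cultures 1 and 3 and the reaggregates carried no label of cell source. The labels did not say that libraries of a group came from separate cultures, so that p-values measure only the spread between these samples, which may be technical.

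Expression was given as RPM, the reads on a gene per 1e6 reads on all genes of the library. Library depth, estimated by taking the most frequent RPM value other than 0 as a single read, ranged from 7.35 to 9.43 M (1e6) reads for reaggregates, with a median of 8.49 M, and from 8.26 to 8.70 M for flat cultures, with a median of 8.37 M. A gene with 3 reads thus stands at 0.318 to 0.408 RPM, depending on the library, and this floor takes in counting error alone. Means are followed by ± SD.

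Complement is a cascade of plasma proteases and their substrates that labels microbes, immune complexes and dying cells for removal. In the classical pathway the proteases C1r and C1s, carried by C1q, cleave C4 and C2. The lectin pathway reaches the same substrates through the MASP proteases, and the alternative pathway amplifies cleavage of C3, on which all routes converge. Serping1 (C1 inhibitor) and clusterin restrain the cascade in the fluid phase, whereas CD55, CD59 and Crry, encoded in the mouse by *Cr1l*, protect the cell surface. Most circulating complement is made in the liver, but fibroblasts and other stromal cells also transcribe several of its early components.

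The stromal label was compared with marker genes. Of 11 stromal markers, 10 were above the filter on low values (more than 0.5 RPM in at least 1 library). *Thy1* was the exception, at no more than 0.359 RPM. *Col1a2*, a fibrillar collagen chain, had the highest mean, 9630 ± 1612 RPM over reaggregates (n = 6) and 3228 ± 2250 RPM over flat cultures (n = 4). In flat cultures 2 and 4 *Cxcl12* exceeded it, at 4560 and 3990 against 2070 and 1190 RPM. The leukocyte marker *Ptprc*, the macrophage marker *Emr1* and the C1q chain gene *C1qb* were listed at 0 in all 10 libraries, whereas *Lyz2*, at 6.92 to 48.5 RPM, and *Cd14*, at 4.49 to 8.98 RPM, were present in every library. These were among 9 macrophage markers, of which 4 passed the filter and none was called between the culture forms by limma. Of all genes tested, 7.32% were called higher in reaggregates and 6.53% lower, so that no call among 4 genes says little. *Csf1r*, the receptor for macrophage colony-stimulating factor, reached at most 1.23 RPM. Hepatocyte markers did not exceed 0.136 RPM in any library, and of 5 endothelial markers only *Pecam1* passed the filter, with at most 0.716 RPM. Fewer cells of a type and less RNA per cell cannot be told apart in these bulk samples.

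Reaggregates were first compared with flat cultures. *C3*, *C1s*, *C4b* and *Clu* were up-regulated in reaggregates, with mean RPM 5.89-fold, 4.09-fold, 7.08-fold and 2.75-fold that of flat cultures. These ratios depended on flat culture 3, without which they were 19.1, 8.06, 84.7 and 4.18. *Cd59a*, the membrane inhibitor of the terminal complex, stood at near-equal levels in both culture forms. *Serping1* was below the floor of 3 reads in every library but flat culture 3, and *Cd55* was listed at 0 in all of them. A gene was called when limma on log2(RPM + 0.5) gave at least a 2-fold difference with an adjusted p (Benjamini-Hochberg) no larger than 0.05. The added 0.5 makes differences of weakly expressed genes smaller. By this rule 4 of the 5 members above the filter were called higher, where 7.32% of the 16933 genes tested were called higher. All 5 exceeded 0.5 RPM in libraries of both culture forms. None of the 4 calls was retained when reaggregates of consecutive numbers were averaged, as given below.

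*C1s* encodes the protease of the C1 complex that cleaves C4 and C2. Its expression in reaggregates ranged from 192 to 320 RPM with a median of 242 RPM, and was 66.8, 17.7, 153 and 9.72 RPM in flat cultures 1 to 4. Every reaggregate lay above every flat culture, the highest of which was flat culture 3, and both flat cultures with the de Bruijn label lay lowest. The log2 difference was 2.74 (SE 0.60, limma adjusted p = 0.00746). An exact two-sided permutation test of mean log2(RPM + 0.5) gave p = 0.00952, the smallest that the 210 splits into 6 and 4 libraries allow. This test takes all reaggregates as exchangeable, whereas consecutive ones were more alike, so that its p may be too small here and for the genes below.

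*C4b* encodes C4, the substrate of C1s whose larger fragment binds covalently to surfaces. In reaggregates its expression was between 11.0 and 76.7 RPM with a median of 38.2 RPM, and in flat cultures 1 to 4 it was 1.14, 0.209, 21.1 and 0.0625 RPM. Here the groups overlapped, because flat culture 3 exceeded reaggregates 5 and 6, at 11.5 and 11.0 RPM, whereas the values of both flat cultures with the de Bruijn label lay below the floor of 3 reads. The log2 difference was 4.03 (SE 0.95, limma adjusted p = 0.00989), and the exact permutation p was 0.0286.

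*C3* encodes the central component, cleaved to the opsonin C3b and the anaphylatoxin C3a. In reaggregates it ranged from 182 to 327 RPM with a median of 292 RPM, and in flat cultures 1 to 4 it was 34.1, 5.13, 138 and 2.43 RPM. As for *C1s*, the groups did not overlap, flat culture 3 came nearest to the reaggregates and the cultures with the de Bruijn label lay lowest. The log2 difference was 3.94 (SE 0.85, limma adjusted p = 0.00674), and the exact permutation p was again the smallest possible, 0.00952. *C1s* and *C3* were thus the 2 members in which every reaggregate exceeded every flat culture, an order found for 7.80% of all genes tested.

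*Clu* encodes clusterin, a secreted chaperone that blocks assembly of the terminal complex. Its values ranged from 7.97 to 29.3 RPM in reaggregates with a median of 19.3 RPM, and were 2.76, 5.85, 14.1 and 5.10 RPM in flat cultures 1 to 4. Reaggregates 5 and 6 were again the lowest of their group, and flat culture 3 exceeded both of them. The log2 difference was 1.45 (SE 0.46, limma adjusted p = 0.0349), and the exact permutation p was 0.0381.

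*Cd59a* encodes the lipid-anchored inhibitor that stops C9 from completing the membrane attack complex. It ranged from 22.0 to 32.2 RPM in reaggregates with a median of 29.9 RPM, and was 33.9, 27.4, 21.4 and 38.7 RPM in flat cultures 1 to 4. The groups overlapped widely. The log2 difference was −0.10 with a 95% confidence interval from −0.53 to 0.34 (limma adjusted p = 0.730), and the exact permutation p was 0.638. *Serping1*, which encodes the inhibitor of C1r, C1s and the MASP proteases, reached 0.136 RPM in reaggregate 2 and 0.109 RPM in reaggregate 3 and was listed at 0 in the other reaggregates. In flat cultures 1 to 4 it was 0.115, 0.119, 0.479 and 0.121 RPM, so that only flat culture 3 was above the floor of 3 reads, and no test was made. *Cd55*, the gene of the decay-accelerating factor, gave no value above 0.

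**Figure D1:**
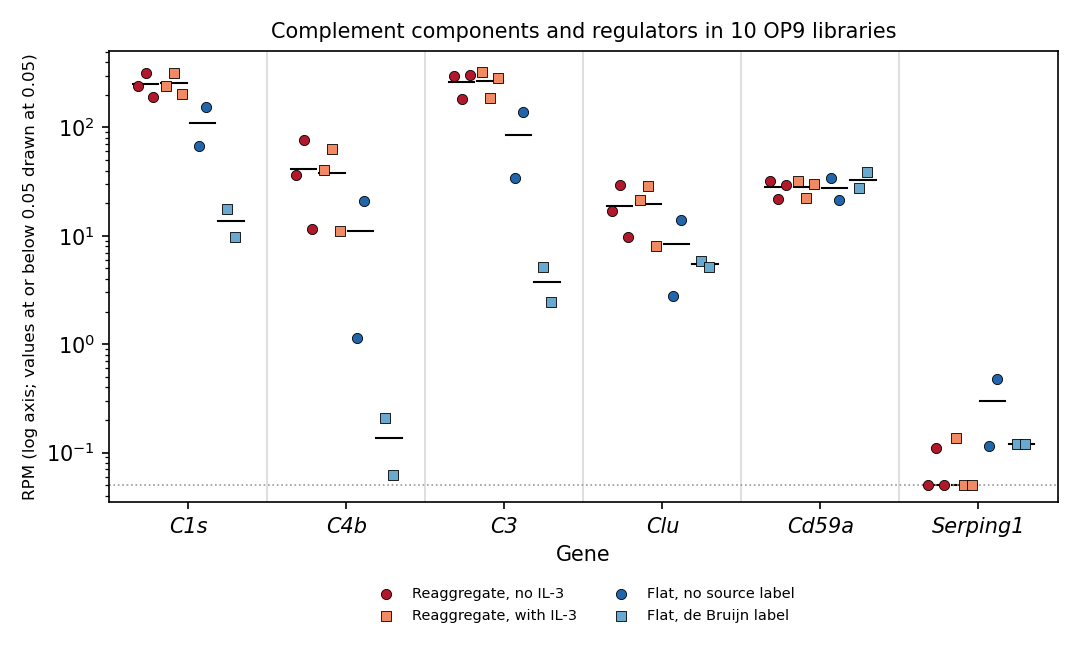
Expression of *C1s*, *C4b*, *C3*, *Clu*, *Cd59a* and *Serping1* in RPM on a log axis, with 1 point per library, colours and symbols for IL-3 and source label, and bars at the mean RPM of each subgroup. *C1s* and *C3* separate the 6 reaggregates from the 4 flat cultures, *Cd59a* does not, and values at or below 0.05 RPM are drawn at 0.05.

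Consecutive reaggregates (1 and 2, 3 and 4, 5 and 6), which differ in IL-3, resembled each other closely. Pearson's r over genes was 0.994 to 0.995 for such pairs and 0.961 to 0.980 for the remaining 12 combinations, although genes are no independent replicates. With each pair averaged, as 3 samples, none of the 4 calls was retained, at limma adjusted p = 0.0826 for *C3*, 0.0869 for *C1s*, 0.0868 for *C4b* and 0.145 for *Clu*, although all 4 had an unadjusted p under 0.05. Over all alternatives the adjusted p ranged from 7.14e-07 to 0.0855 for *C3*, from 2.49e-06 to 0.0885 for *C1s*, from 0.000206 to 0.136 for *C4b* and from 0.00663 to 0.177 for *Clu*. *C3*, *C1s* and *C4b* were called when any 1 of the 10 libraries was left out. Their log2 differences then ranged from 3.11 to 4.96, from 2.12 to 3.42 and from 3.44 to 5.19, lowest without flat culture 4 and highest without flat culture 3. *Clu* kept its call only without reaggregate 5, reaggregate 6 or flat culture 3. It was not called without reaggregate 1, 2, 3 or 4 (adjusted p = 0.0633, 0.0697, 0.0703 and 0.0706) or flat culture 1, 2 or 4 (adjusted p = 0.0952, 0.0675 and 0.0934).

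The flat cultures contributed unequally to these differences. Against the pair with no source label alone, *C3* and *C1s* were still called, at log2 differences of 1.90 and 1.29 (limma adjusted p = 0.0257 for each), compared with 5.99 and 4.19 against the pair with the de Bruijn label (adjusted p = 7.14e-07 and 2.49e-06). *C4b* and *Clu* were not called against the unlabelled pair, at log2 differences of 2.41 and 1.35 (adjusted p = 0.136 and 0.177). These fits took all reaggregates as separate samples, and none was made with consecutive ones averaged. The source of the reaggregated cells was not labelled, so that culture form and cell source cannot be told apart in full.

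Levels of different genes were compared per length, as RPM per kilobase of annotated exon. In reaggregates *C1s* stood highest among the members, at 72.5 ± 15.7 RPM per kilobase (n = 6), followed by *C3* at 51.6 ± 12.3, *Cd59a* at 15.5 ± 2.63, *C4b* at 6.99 ± 4.69 and *Clu* at 5.56 ± 2.68 RPM per kilobase. Only the step from *C3* to *Cd59a* separated neighbours without overlap of their libraries. In flat cultures the means were 17.7 ± 18.9 RPM per kilobase for *C1s* (n = 4), 16.8 ± 4.17 for *Cd59a*, 8.75 ± 12.4 for *C3*, 2.02 ± 1.44 for *Clu* and 0.988 ± 1.81 for *C4b*. There the ranges of all neighbours in this order overlapped, although every library of *Cd59a* lay above every library of *Clu* and *C4b*. In flat cultures 2 and 4, with the de Bruijn label, *Cd59a* exceeded *C1s* already in RPM (27.4 and 38.7 against 17.7 and 9.72). Its annotated exons are also shorter (1.81 against 3.49 kilobases). *Clu* likewise exceeded *C3* in RPM in both, with shorter exons (3.44 against 5.13 kilobases).

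Genes of the complement system were then taken by role from lists that hold 44 genes found by name, members included. Of these, 27 were above the filter, 21 of them in libraries of both culture forms. The other 6, *Vtn* and *C3ar1* among them, passed through 1 culture form alone and were left out of the counts of calls, here and by role. Of the 21 genes 6 were called higher in reaggregates and 1 lower by limma, where 7.62% and 6.77% of the 15474 genes above the filter in both culture forms were called higher and lower. Their median log2 difference was 0.70, against 0.03 over these 15474 genes. With consecutive reaggregates averaged, the calls of *C1rb*, *Masp1* and *C8g* described below were not retained (limma adjusted p = 0.119, 0.125 and 0.167), and the ranges given for these genes include this alternative. Every reaggregate exceeded every flat culture for 2 of the 21 genes and lay below every flat culture for 3, as for 1221 and 1840 of the 15474 genes.

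Of the 5 classical pathway genes above the filter, 3 were called higher and none lower, where 7.62% and 6.77% of the 15474 genes were. Beside *C1s* and *C4b* this was the gene listed as *C1rb*, a protease that activates C1s, with 172 ± 42.0 RPM (n = 6) in reaggregates and 85.2 ± 42.7 RPM (n = 4) in flat cultures. Its log2 difference was 1.10 (SE 0.29, limma adjusted p = 0.0170), and without flat culture 4 it was 0.83 and not called (adjusted p = 0.0543, over all alternatives 0.00146 to 0.149). *C4a*, the near-identical neighbour of *C4b*, stood at 8.61 ± 5.21 and 2.61 ± 4.03 RPM (log2 difference 1.99, adjusted p = 0.0624). *C2*, the catalytic partner of C4b, stood at 10.8 ± 3.18 and 5.69 ± 3.43 RPM (log2 difference 0.99, adjusted p = 0.0651). Neither passed the test in this fit. *C4a* was called after quantile normalization (adjusted p = 0.0453), against the labelled flat cultures alone (adjusted p = 0.0117) and without reaggregate 5, reaggregate 6 or flat culture 3 (adjusted p = 0.0409, 0.0380 and 0.00533, over all alternatives up to 0.412). *C2* was called against the labelled flat cultures alone (adjusted p = 0.00197) and without reaggregate 4 or flat culture 3 (adjusted p = 0.0492 and 0.0169, over all alternatives up to 0.604). *C1qb* was listed at 0 throughout, and *C1qa* and *C1qc* were not analysed here.

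In the lectin pathway the order was opposite for its most abundant gene. *Masp1*, a protease of mannose-binding lectin and ficolin complexes, ranged from 67.6 to 108 RPM in reaggregates with a median of 74.0 RPM and was 113, 726, 143 and 523 RPM in flat cultures 1 to 4. Every flat culture lay above every reaggregate, the unlabelled pair only narrowly and the pair with the de Bruijn label far above. Of the 4 genes of the list above the filter only *Masp1* was called, where 6.77% of the 15474 genes were called lower. It was down-regulated at a log2 difference of −1.78 (SE 0.46, limma adjusted p = 0.0159). It was not called without flat culture 4 (−1.48, adjusted p = 0.0608) or against the unlabelled pair alone (−0.64, adjusted p = 0.0682), within a range of 7.61e-06 to 0.126 over all alternatives. *Fcna*, a ficolin, stood at 1.36 ± 1.26 and 1.16 ± 1.10 RPM, with a log2 difference of 0.03 that was negative under several alternatives.

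Beyond *C3*, the alternative pathway was represented by *Cfp*, the gene of properdin, which stabilises the C3 convertase. It stood at 8.79 ± 6.03 RPM (n = 6) in reaggregates and 3.54 ± 3.17 RPM (n = 4) in flat cultures and did not pass the test (log2 difference 1.03, limma adjusted p = 0.310). Reaggregates 5 and 6 were low for *Cfp*, at 1.08 and 1.38 RPM, as they were for *C4a*, at 2.05 and 2 RPM. *Cfd*, which encodes factor D, did not exceed 0.136 RPM. Of the terminal pathway 1 of 5 genes passed the filter, *C8g*, a chain of C8, with 3.73 ± 1.01 and 1.64 ± 1.48 RPM. It was called higher (log2 difference 1.18, adjusted p = 0.0329), where 7.62% of the 15474 genes were. It was not called without reaggregate 1, 2 or 3 (adjusted p = 0.0668, 0.0694 and 0.0590) or flat culture 1, 2 or 4 (adjusted p = 0.0557, 0.0924 and 0.107), within 0.000588 to 0.327 over all alternatives.

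Of 8 fluid-phase regulators only *Clu*, called higher, was above the filter in both culture forms, and 7.62% of the 15474 such genes were called higher. *Vtn* encodes vitronectin, which binds the forming terminal complex. It was low in reaggregates, between 0.325 and 1.85 RPM with a median of 1.12 RPM, and was listed at 0 in every flat culture, so that it passed the filter only through the reaggregates and no fold is given.

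Of the membrane regulators 4 of 8 genes were above the filter in both culture forms and none was called by limma. An adjusted p of at most 0.05 at any fold was reached by 1 of the 4, where 29.3% of all genes tested reached it. This was *Cr1l*, the gene of Crry, which inactivates C3 and C4 convertases on rodent cells. It ranged from 24.6 to 29.9 RPM in reaggregates with a median of 26.8 RPM and was 54.1, 36.6, 33.5 and 55.8 RPM in flat cultures 1 to 4. Every reaggregate lay below every flat culture, at a log2 difference of −0.70 (SE 0.17, limma adjusted p = 0.0120) that was smaller than the 2-fold threshold. With consecutive reaggregates averaged its adjusted p was 0.1198, within 0.00268 to 0.156 over all alternatives. *Cd46*, whose product is a cofactor for C3b cleavage, stood at 1.87 ± 1.24 RPM (n = 6) and 0.831 ± 0.844 RPM (n = 4) and did not pass the test (adjusted p = 0.235), but was called against the labelled flat cultures alone (adjusted p = 0.0459, over all alternatives 0.0384 to 0.939).

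Of 9 receptor genes 4 were above the filter in both culture forms and none was called by limma, with 1 of the 4, *C1qbp*, at an adjusted p of at most 0.05, where 29.3% of all genes tested were. *C3ar1*, the receptor for C3a, was listed at 0 in 4 reaggregates, reached 0.109 RPM in reaggregate 3 and 0.128 RPM in reaggregate 4, and was 0.345, 9.31, 0.599 and 7.17 RPM in flat cultures 1 to 4. All reaggregates thus lay below the floor of 3 reads and below every flat culture, and only flat cultures 2 and 4 stood well above it. It passed the filter only through the flat cultures, so that neither a fold nor a test is given. *C1qbp*, a mainly mitochondrial protein that also binds C1q, was lower in every reaggregate, at 94.4 ± 4.98 against 121 ± 6.40 RPM, by less than 2-fold (log2 difference −0.36, adjusted p = 0.0275, and 0.202 with consecutive reaggregates averaged, within 0.00397 to 0.217 over all alternatives). *Itgb2*, a chain of the complement receptors CR3 and CR4, and *Cd93* were not called, at 3.76 ± 0.738 and 2.45 ± 1.57 RPM and at 8.98 ± 3.65 and 7.37 ± 2.59 RPM, although *Itgb2* was called without flat culture 2 (adjusted p = 0.0486, over all alternatives up to 0.610).

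**Figure D2:**
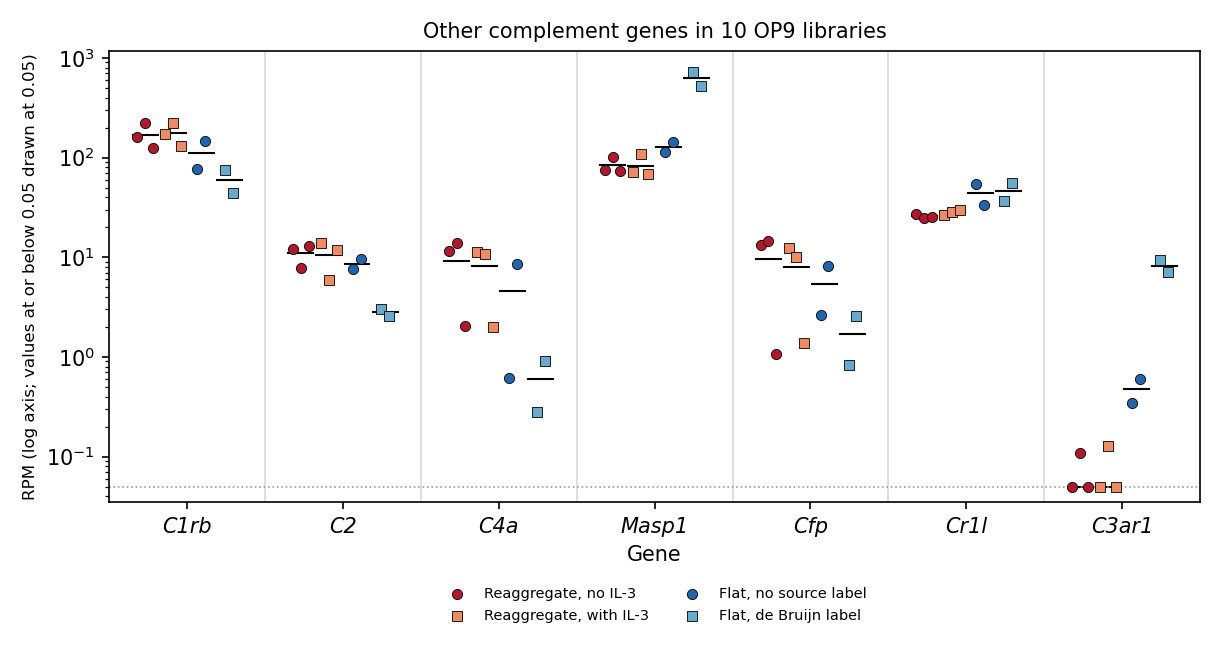
Expression of *C1rb*, *C2*, *C4a*, *Masp1*, *Cfp*, *Cr1l* and *C3ar1* in RPM on a log axis, with 1 point per library and bars at the mean RPM of each subgroup. *Masp1* and *C3ar1* stand highest in the 2 flat cultures with the de Bruijn label, and values at or below 0.05 RPM are drawn at 0.05.

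Inflammatory cytokines and their transcription factors are known inducers of complement genes, and genes of these pathways were listed beside them. Of 16 genes above the filter 4 were called higher in reaggregates and none lower by limma, where 7.32% and 6.53% of all genes tested were. *Lifr*, a receptor chain for leukaemia inhibitory factor, stood at 11.5 ± 6.36 RPM (n = 6) and 2.0 ± 2.34 RPM (n = 4), at a log2 difference of 2.38 (adjusted p = 0.0119). *Stat3*, the most abundant of the list in reaggregates but not in flat cultures and the transducer of IL-6 family signals, stood at 324 ± 105 and 119 ± 80.0 RPM (log2 difference 1.63, adjusted p = 0.0108). *Irf1* and *Cebpb*, transcription factors of the interferon and acute-phase responses, stood at 51.3 ± 11.9 and 25.1 ± 15.4 RPM (adjusted p = 0.0287) and at 48.2 ± 14.0 and 21.4 ± 5.47 RPM (adjusted p = 0.00488). The cytokine gene *Il6* stood lower, at 1.80 ± 0.501 against 4.88 ± 2.87 RPM, and did not pass the test (adjusted p = 0.0512). *Tnf* and *Il1b* were listed at 0. The median log2 difference of the 16 genes was 0.55, against 0.04 over all genes tested. Calls in this list, in the acute-phase list and among the marker genes of cell types were not examined under the alternatives.

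Of 9 acute-phase and secreted inflammatory genes above the filter, 1 was called higher and 1 lower, where 7.32% and 6.53% of all genes tested were. *Cp*, the gene of the copper oxidase ceruloplasmin and the most abundant of the list in reaggregates, stood at 208 ± 7.31 RPM (n = 6) in reaggregates and was 111, 1.11, 97.5 and 0.652 RPM in flat cultures 1 to 4 (log2 difference 4.13, limma adjusted p = 0.0245). *Ccl2*, a monocyte chemokine and the most abundant in flat cultures, was lower in reaggregates, at 48.2 ± 27.7 RPM (n = 6) against 219 ± 104 RPM (n = 4) for flat cultures (log2 difference −2.35, adjusted p = 0.00967). Stromal markers moved as well: 6 of 10 were called higher and 1, *Kitl*, was called lower. Their summed level was 22287, 22638, 24787, 24841, 18006 and 16952 RPM for reaggregates 1 to 6, compared with 8284, 8992, 14525 and 6468 RPM for flat cultures 1 to 4, highest among flat cultures in flat culture 3. Whether this has a part in the differences of the complement genes was not tested.

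IL-3 was then examined within the reaggregates, 3 with it and 3 without. No complement gene passed the test for IL-3, and the 5 members above the filter stood at near-equal means. *C3* was 299, 182 and 307 RPM without IL-3 and 327, 188 and 285 RPM with it. *C1s* was 240, 318 and 192 RPM without it and 243, 320 and 205 RPM with it. Within each group the spread between libraries exceeded the difference between the group means. The log2 differences of the members, with IL-3 minus without, were between −0.06 for *C4b* and 0.04 for *C1s*. Their 95% confidence intervals ranged from the narrowest, −0.51 to 0.53 for *Cd59a*, to the widest, −2.17 to 2.05 for *C4b*, and those of *C4b* and *Clu* (−1.39 to 1.41) reached past 2-fold. limma called 0 of the 16933 genes (0%), of which 68 had an unadjusted p under 0.05, no member among them. With consecutive reaggregates as a block, 564 genes had an unadjusted p under 0.05, 0 of them were called by limma, and the smallest p of a member was 0.403. The intervals then ran from −0.30 to 0.17 for *C4b*, from −0.31 to 0.33 for *Clu* and from −0.12 to 0.17 for *C3*, all within 2-fold. The labels did not name these pairs.

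Variation among reaggregates followed the consecutive pairs instead. Within a pair no member differed by more than 1.25-fold, the value for *Clu*, whereas the highest and lowest reaggregates differed 6.97-fold for *C4b*, 3.68-fold for *Clu*, 1.80-fold for *C3*, 1.67-fold for *C1s* and 1.46-fold for *Cd59a*. Reaggregates 3 and 4 stood highest for *C1s*, *C4b* and *Clu* and lowest for *C3* and *Cd59a*. Members of the cascade did therefore not share 1 order across the reaggregates.

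The flat cultures were compared by source label, 2 with the de Bruijn label and 2 without. *C3* and *C1s* were lower with the label, and *Masp1* and *C3ar1* were higher. By limma 2 of the 5 members were called lower, where 3.87% of the 16933 genes tested were called lower, and none was called higher, where 1.82% were, with 0 members higher at an unadjusted p under 0.05. The log2 difference, labelled minus unlabelled, was −4.09 for *C3* (SE 0.73, limma adjusted p = 0.0425) and −2.90 for *C1s* (SE 0.51, adjusted p = 0.0410). *C4b* did not pass the test at −3.24 (SE 1.17, adjusted p = 0.182), with 1.14 and 21.1 RPM in the unlabelled cultures. Both of its labelled values lay below the floor of 3 reads, and its difference was −4.52 with a pseudocount of 0.1 and −2.60 with 1. With 1 library left out it ranged from −5.10 to −1.38. *Clu* and *Cd59a* had log2 differences of −0.21 and 0.27 (adjusted p = 0.897 and 0.711). The median over all genes tested was −0.17, and that of the 5 members was −2.90.

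Other complement genes were called higher with the label. *Masp1* differed by 2.27 on the log2 scale (SE 0.32, limma adjusted p = 0.0231) and *C3ar1* by 3.17 (SE 0.36, adjusted p = 0.0131). The unlabelled values of *C3ar1*, 0.345 and 0.599 RPM, lay near the floor of 3 reads. Its difference was 3.89 with a pseudocount of 0.1 and 2.65 with 1. Without a filter on low values neither gene was called (limma adjusted p = 0.1245 for *Masp1* and 0.1187 for *C3ar1*). *Gpr77*, a receptor gene for C5a, was 1.31 and 2.30 RPM with the label, was listed at 0 without it and did not exceed 0.436 RPM in reaggregates. It passed the filter only through the labelled cultures, so that no fold is given.

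Markers and inflammatory genes moved with the label in both directions. Of 10 stromal markers 2, *Col3a1* (−4.02, limma adjusted p = 0.0182) and *Ly6a* (−6.74, adjusted p = 0.00490), were called lower, and of 4 macrophage markers 1, *Lyz2* (−2.18, adjusted p = 0.0421), where 3.87% of all genes tested were called lower. *Cxcl12* stood higher with the label, at a mean of 4275 against 394 RPM, and did not pass the test (3.89, adjusted p = 0.0610). The summed level of the macrophage markers, of which *Lyz2* was the most abundant, was 56.6, 13.3, 38.0 and 15.6 RPM in flat cultures 1 to 4 and between 14.2 and 31.5 RPM in reaggregates. Of the acute-phase genes 3 of 9, *Cp*, *Ptx3* and *Cxcl5*, and of the inducers 2 of 16, *Irf1* and *Il1r1*, were called lower, and none of these lists held a gene called higher. Of 5 adipocyte markers above the filter, *Plin1* and *Adipoq* passed through 1 culture form alone and were left out of the counts. Of the other 3, *Fabp4* and *Pparg* were called higher with the label, where 1.82% of all genes tested were, and all 3, with *Cebpa*, were called lower in reaggregates than in flat cultures, where 6.53% were. The summed level of all adipocyte markers was 116, 1020, 170 and 1126 RPM in flat cultures 1 to 4 and between 90.9 and 133 RPM in reaggregates. *Fabp4*, a fatty acid carrier, was the most abundant in the labelled cultures, and *Pparg* had the highest mean in reaggregates and unlabelled cultures. In flat culture 3 *Cebpa* exceeded *Pparg*, at 64.3 against 58.1 RPM. *Adipoq* did not exceed 0.768 RPM and *Retn* was listed at 0. The part of these cells or transcripts in the complement differences was not tested. When any 1 of the 4 flat cultures was left out, limma called 0 genes in either direction, with between 592 and 1266 genes higher and between 1192 and 3169 lower at an unadjusted p under 0.05. The lone library of a pair is then assumed to vary like the other group.

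The genes most like each member over the 10 libraries were taken by Pearson's r of log2(RPM + 0.5), as a description. For *C3* these were *Pcdh18* (r = 0.998), *Lmo7* (0.997) and *Cbx6* (0.997), and for *C1s* *Il17rd* (r = 0.999), *Serinc5* (0.996) and *Cdh11* (0.995). For *C4b* they were *Ssbp4* (r = 0.994), *Stard13* (0.993) and *Nfatc4* (0.993), and for *Clu* *Gtf2ird1* (r = 0.993), *Onecut2* (0.990) and *Rnf40* (0.989). *Cd59a* had no match of this closeness, with *AL626773.2* (r = 0.909), *Ccdc53* (0.906) and *Bivm* (0.890). No other complement gene was among these matches. All points share the culture groups, so that genes which differ between them in the same way correlate.

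Several members lie beside related genes, which may affect how reads were assigned. On the authors' assembly, NCBIM37, *C1s* spans chr6:124480363-124586998 on the minus strand, and *Gm5077*, a second C1s gene, spans chr6:124574584-124587055 within the same interval but for its end, with 205 bases of exon shared. The gene listed as *C1rb* carries the identifier ENSMUSG00000055172, which the annotation used here names *C1ra* and places at chr6:124462423-124473458 on the plus strand. Values of *C1s* and *Gm5077* are therefore uncertain where reads fit both genes. The gene listed as *C1rb* shares 29 bases of exon with another gene, which that annotation names *C1rb*. Its values may be uncertain for that reason. *Gm5077*, chosen after its values were seen, stood at 32.0 ± 6.43 RPM (n = 6) and 9.14 ± 9.20 RPM (n = 4), at a log2 difference of 2.25 (limma adjusted p = 0.00766). With consecutive reaggregates averaged it was not called (adjusted p = 0.0898, within 3.13e-06 to 0.0940 over all alternatives). The sum of *C1s* and *Gm5077* was between 216 and 359 RPM in reaggregates and between 12.4 and 175 RPM in flat cultures, again without overlap.

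**Figure D3:**
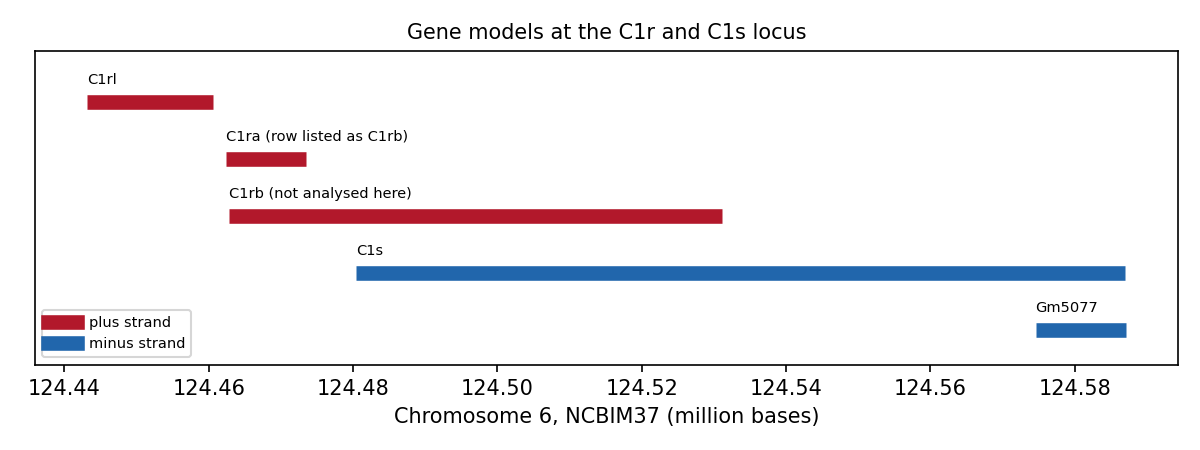
Gene models at the *C1r* and *C1s* locus on chromosome 6 of NCBIM37, drawn to scale along the axis in Mb (1e6 bases), with plus and minus strands in different colours. The models of *C1s* and *Gm5077* overlap on the minus strand.

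The C4 genes lie apart on chromosome 17, *C4b* at chr17:34865325-34880827 and *C4a* at chr17:34946037-34960409, both on the minus strand. *C4b* took between 75.9% and 85.4% of the sum of the pair in reaggregates and between 6.38% and 71.0% in flat cultures. The lowest share was that of flat culture 4, with *C4b* at 0.0625 RPM and *C4a* at 0.917 RPM. In flat cultures 2 and 4 *C4b* lay below the floor of 3 reads, so that these shares rest on very few reads. Reads that fit both genes had been divided between them, which also limits the shares. As a sum they gave 48.4 ± 31.4 RPM (n = 6) and 8.24 ± 14.3 RPM (n = 4), which overlapped through flat culture 3, at 29.7 RPM. *C3* lies at chr17:57343397-57367559 and *Clu* at chr14:66587320-66600385. *Cd59a*, at chr2:103935958-103955511, lies next to its copy *Cd59b*, which did not exceed 1.07 RPM.

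Promoters were searched because *C3* and *C1s* were called in the same direction between culture forms and by source label, although not in the same order among reaggregates, using RefSeq sequences of build GRCm38.p6, whose coordinates differ from those above. For 10 complement genes 11 entries were found, *C1ra*, *C1rb*, *C1s1* (the RefSeq name of *C1s*), *C1s2*, *C3*, *C3ar1*, *Cd55*, *Cd59a*, *Cfp* and *Cr1l*. *C4b*, *C4a*, *Clu*, *Serping1*, *Cfb*, *C2* and *Masp1* were without an entry. Other complement genes, *C8g* among them, were not searched. The 250 bases before each start were read on both strands for the letters TTNNGNAAT (C/EBP), TTCNNNGAA (STAT), TTTCNNTTT (IRF) and GGNNTTTCC (NF-kB), and no matches overlapped. The C/EBP letters were found in 3 of the 10 genes, *C3*, *C1s1* and *C1ra*, and in 10.2% of all 32851 promoters. The count is by gene, with 2 entries for *C1s1*, whereas the share is over promoter entries, so that they cannot be compared directly. The measured gene listed as *C1rb* carries the identifier of *C1ra*, so that the RefSeq entry *C1rb* is another gene. The STAT letters were found in that entry (7.02% of all promoters), the IRF letters in *C3ar1*, *Cd59a* and *Cr1l* (9.37%) and the NF-kB letters in *C3ar1* (4.93%). Shown for *C3* and *C1s1* are bases −130 to −31 from the start, 5′ to 3′ on the minus strand, chr17:57228167-57228266 and chr6:124542390-124542489, with the C/EBP letters in capitals.
*C3*: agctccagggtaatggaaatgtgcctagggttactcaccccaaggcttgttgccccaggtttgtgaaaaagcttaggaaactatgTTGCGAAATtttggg
*C1s1*: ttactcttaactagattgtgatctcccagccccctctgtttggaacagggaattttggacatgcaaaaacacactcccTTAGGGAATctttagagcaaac
The matches shown begin 45 bases before the start of *C3* and 52 bases before the more upstream of 2 starts of *C1s1*, on the strand of the gene. The same entry of *C1s1* holds another C/EBP match, from base −242 to −234, outside the bases shown. A match of letters is a description and shows no binding in these cells.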

How the data were processed

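RNA-seq libraries of 6 reaggregates and 4 flat cultures of OP9 cells were grouped by their labels. Alignment by the authors used TopHat 1.2.0 and NCBIM37 (mm9). GeneProf gave reads to Ensembl genes, with multiply mapping reads divided, and the authors deposited RPM for every gene in every library. The deposited table also holds the authors' log2 fold change and adjusted p of reaggregates against flat cultures from DESeq, which were not used. Between 50.7% and 54.8% of values up to 10 reads were whole multiples of 1 read (within 1%), so count-based tests were not used.

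Comparisons were made by limma 3.58.1 (R 4.3.3; empirical Bayes, mean-variance trend, no covariates) on log2(RPM + 0.5) of genes that exceeded 0.5 RPM in any library, with p adjusted over all genes tested. Exact permutation tests used scipy 1.17.1. The fit was tested on simulated data with libraries drawn independently. Consecutive reaggregates were thus not made more alike there, so that the simulation does not cover this feature. Figures were drawn with matplotlib 3.10.9. Alternatives changed the pseudocount, filter, scaling, trend, block and libraries.

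Named genes were all members, other listed complement genes with a mean of at least 1 RPM in a culture form or called, and, of other lists, called genes and the most abundant. *Gpr77*, *Lyz2*, *Cd14*, *Ptx3*, *Cxcl5*, *Il1r1*, *Il6*, *Tnf*, *Il1b* and low markers were named after their values were seen. A further listed gene is not reported here and was left out of the lists. Members and lists were chosen with earlier results of these data known. Exon lengths and coordinates came from GENCODE M1, a later release than the authors' annotation.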

Additional observations from a re-analysis of the deposited data

Results flagged for a closer look

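Among 41 groups of libraries of the genes named, 3 held a value far from the others (Dixon's test at the 95% level), and chance flags about 1 in 20 groups. All of these values belonged to flat culture 3. There *C4b* reached 21.1 RPM, whereas no other flat culture exceeded 1.14 RPM. *C4a*, which may share reads with *C4b*, was 8.64 RPM, against at most 0.917 RPM. *Serping1* was 0.479 RPM, against at most 0.121 RPM, a difference of a few reads. The cause was not tested. Without flat culture 3 the log2 difference of *C4b* between reaggregates and flat cultures was 5.19, compared with 4.03 with all libraries, and that of *C4a* was 2.76 and was called by limma (adjusted p = 0.00533).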

How the results depend on the processing

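Over 25 alternatives, 766 log2 differences of 20 complement genes were recomputed with limma: 632 kept their direction and side of the thresholds, 77 lost a call, 17 gained one and 40 changed sign. The small number of libraries limits these comparisons, and genes below 0.4 RPM rest on fewer than 4 reads. Causes of the changes were not tested beyond the fewer samples or genes that an alternative uses.

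For reaggregates against flat cultures, 1239 genes were called higher and 1106 lower. With consecutive reaggregates averaged the counts were 312 and 429, with only reaggregates without IL-3 345 and 474, and with only those with IL-3 277 and 360. In each of these 3 fits 0 members were called, with 4 at an unadjusted p under 0.05. Against flat cultures with the de Bruijn label alone the counts were 2579 and 1775. Against those with no source label 627 genes and 2 members were called higher and 1044 genes lower. Leaving out 1 library gave between 766 genes higher (without flat culture 4) and 2121 (without flat culture 3). *Fcna* changed sign, to −0.23 with a pseudocount of 0.1, −0.036 after quantile normalization, −0.020 with only IL-3 reaggregates and −0.62 against unlabelled flat cultures. There *Cd59a* was 0.039. With 1 library left out *Fcna* ranged from −0.23 to 0.42 and *Cd59a* from −0.25 to 0.031.

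With the replicate block (numbers 1 to 4 shared by both culture forms) 1885 genes were called higher, *Fcna* was −0.56 and *Cd93* −0.076. *C4a*, *Cfp* and *Cd46* were called, *C8g* was not, and the block changed no other call among the 20 genes. Deviations of same-numbered libraries correlated at −0.04, −0.21, 0.07 and 0.15, and not every library correlated best with its own number, so the libraries share only a number.

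For IL-3, *Clu* was −0.0039 and *Cd59a* −0.0018 with median-ratio scaling, and *Clu* −0.020 after quantile normalization. With 1 library left out *C1s* ranged from −0.13 to 0.23, *C4b* from −0.78 to 0.65, *C3* from −0.22 to 0.26, *Clu* from −0.38 to 0.54 and *Cd59a* from −0.15 to 0.17.

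By source label, 309 genes were called higher and 656 lower (32.0% higher). Without a filter the counts were 56 and 110, with 0 members lower by limma and 2 at an unadjusted p under 0.05. With genes above 1 RPM in 4 libraries 995 were lower. After quantile normalization 791 were higher (44.9% of calls). With all 10 libraries fitted together the counts were 651 and 1406. The median of all genes was −0.17, −0.04 with median-ratio scaling and 0.05 after quantile normalization. *Cd93* was 0.12 and 0.22 under these scalings, and *Clu* 0.036 under the latter. With 1 library left out 0 genes were called higher, 0 lower and 0 members lower, with between 2 and 4 members lower at an unadjusted p under 0.05. *Clu* then ranged from −1.29 to 0.87, *Cd59a* from −0.057 to 0.59, *Cr1l* from −0.26 to 0.43, *Cd93* from −0.58 to 0.52 and *C1qbp* from −0.029 to 0.14.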
